A study of Mus musculus with 6 samples.

Results

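The RFX (regulatory factor X) genes encode transcription factors that share a winged-helix DNA-binding domain. The genes described here are Rfx1, Rfx2, Rfx3, Rfx4, Rfx5 and Rfx7, which were taken by symbol and are 6 of the 23282 entries in each deposited count table. All 6 had counts in every library, and 5 of them, all but Rfx2, were among the 13771 genes with enough counts to be tested. The study fed wild-type male C57BL/6J mice, 8 to 10 weeks old, either normal chow (NCD) or a diet with 60 kcal% from fat (HFD), in both cases for 10 days. Forebrain without the olfactory bulbs and cerebellum was split into hemispheres, and RNA of whole forebrain tissue gave 3 NCD and 3 HFD libraries. The libraries were made with a QuantSeq kit, which is primed on the poly(A) tail and reads the 3′ ends of transcripts. The labels do not say that each library is a separate mouse, so p-values measure the spread between libraries.

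RFX factors bind the X box, a DNA element with inverted arms that is found in promoters of genes for cilia and for antigen presentation. RFX2 and RFX3 are regulators of ciliogenesis, RFX4 is needed for the dorsal midline and the ventricular system of the developing brain, and RFX5 works with RFXANK and RFXAP at the promoters of MHC class II genes. RFX1 is broadly expressed, RFX7 is known as a regulator of growth-restraining genes in lymphoid and tumour cells, and RFX6 is a factor of pancreatic islets.

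The total count lay between 6842785 and 9689372 per library. Levels are given as CPM, the count relative to the library's total after TMM scaling (a trimmed mean normalization), and a count of 3, taken as the floor of detection, was worth 0.316 to 0.432 CPM. Floors of this kind cover counting error only. HFD replicate 3 stood apart, with a summed level of 8 pituitary genes of 1277 CPM against 4.75 to 13.6 CPM in the other 5 libraries. Its summed level of 9 thalamus and habenula genes was 353 CPM against 485 to 567 CPM elsewhere. Results that rest on this library are therefore given with and without it. Of the marker genes for brain tissue, all 10 neuronal and all 16 astrocyte genes listed had counts.

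The family's own binding element is shown first because the promoters of the RFX genes differed in it. Promoters were taken from RefSeq on GRCm38.p6, with 250 bases before and 50 after each start, and all 6 genes matched, Rfx4 with 2 starts. The arm GTTGCC of the X box, searched on both strands, occurred in the promoters of Rfx1, Rfx2 and Rfx3 and in neither promoter of Rfx4, nor in those of Rfx5 and Rfx7. It occurred in 12.5% of the 32851 promoters in the table. In each of the 3 promoters the arm, all but its last base, lay in a pair facing outward, GNAAC and GTTNC with 1 base between them. This pair reads the same on both strands and occurred in 0.341% of promoters. This second pattern was written after the promoters of the RFX genes had been read. The shorter core GTTGC, searched on both strands, was also in 1 of the 2 promoters of Rfx4 and in that of Rfx5, but not in that of Rfx7. The share of all promoters with this short core was not computed, so its presence only describes these promoters. The pairs are in capitals below, each in a window of 30 bases written on the strand of its gene.
Rfx1 (chr8:84066822-84066851, plus strand): gggtgggtaGCAACAGTTGCcccggtgagg
Rfx2 (chr17:56831110-56831139, minus strand): tgcagcttgGTAACCGTTGCcgggcgcaac
Rfx3 (chr19:28011121-28011150, minus strand): tgagttataGCAACCGTTGCcttgtgaatc

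A full X box, GTTNCC and GGNAAC with 2 bases between them, was in none of the promoters of the RFX genes and in 0.451% of all promoters. Among the gene lists used here it occurred in 5 genes for cilia and in Six3, a homeobox gene of the thalamus and habenula list. They are shown with the element in capitals to give the form in which the arms face each other. Ttc26 and Bbs7 belong to the intraflagellar transport and BBSome genes, and Mks1, Tctn1 and Ahi1 to the transition zone at the base of the cilium.
Ttc26 (chr6:38381483-38381512, plus strand): ccggcggcGTTGCCGTGGAAACggagctcg
Bbs7 (chr3:36613489-36613518, minus strand): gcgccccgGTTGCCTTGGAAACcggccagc
Mks1 (chr11:87853183-87853212, plus strand): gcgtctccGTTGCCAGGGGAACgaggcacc
Tctn1 (chr5:122264411-122264440, minus strand): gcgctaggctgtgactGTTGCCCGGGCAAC
Ahi1 (chr10:20952560-20952589, plus strand): tagtctgaGTTACCTAGGCAACagcggcag
Six3 (chr17:85620705-85620734, plus strand): tggcagtgGTTGCCGTGGCAACgccacaac

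Rfx3 was the most abundant of the RFX genes in every library and Rfx2 the least. QuantSeq reads come from the ends of transcripts, so CPM was not divided by gene length, and the order of genes is an order of 3′ end counts. Rfx3 took between 38.7% and 60.4% of the summed level of the 6 genes, Rfx7 between 17.3% and 23.4%, and Rfx2 between 0.358% and 1.58%. Rfx1, Rfx4 and Rfx5 lay between these, and Rfx4 was the lowest of them in every library. Rfx5 was above Rfx1 except in HFD replicate 1. The ranges of Rfx1, Rfx4 and Rfx5 over libraries overlapped on the NCD. Each was lowest in HFD replicate 3, with Rfx4 at 7.01 CPM, Rfx1 at 10.3 CPM and Rfx5 at 11.7 CPM. The summed level of the 6 genes was 140.2, 142.0 and 147 CPM on the NCD and 137, 126.5 and 135 CPM on the HFD. All HFD sums were below all NCD sums, the closest being 137 and 140.2 CPM. How often sums of other gene groups keep the diets apart was not computed. Without Rfx4 the sums were 126.5, 127.3 and 131.5 CPM on the NCD and 125.2, 117.7 and 128 CPM on the HFD, and the groups overlapped.

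**Figure D1:**
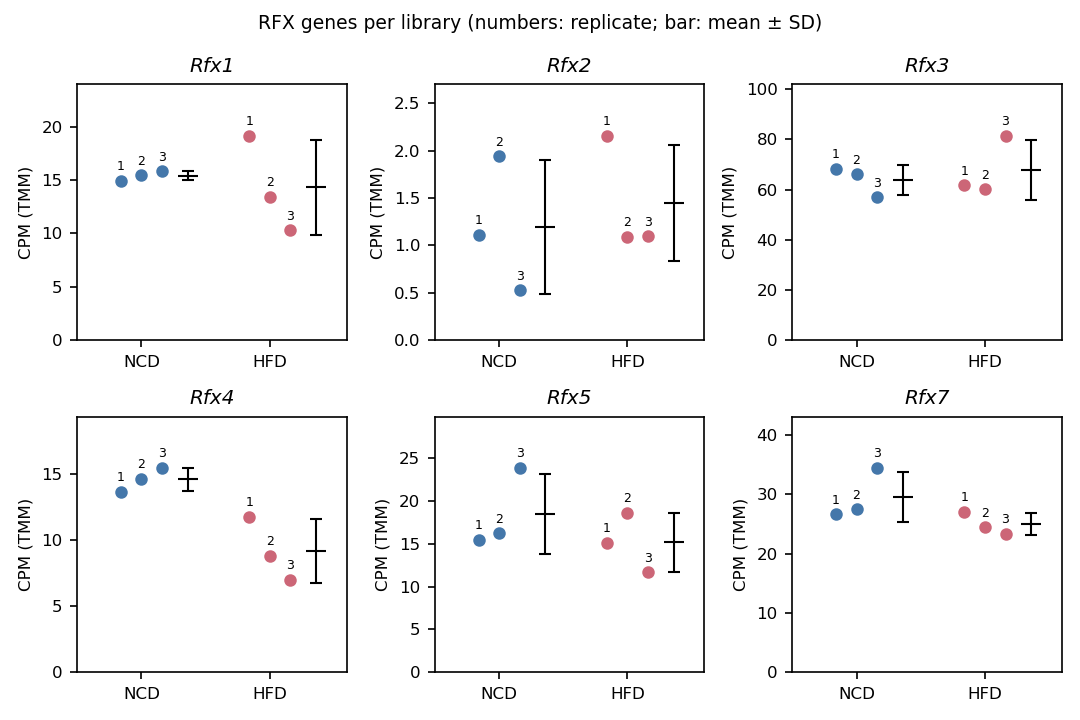
Level of each RFX gene in CPM with TMM scaling (y axis, from 0) in the 3 NCD and 3 HFD libraries (points, numbered by replicate), with the mean and SD of each diet beside them. The groups are apart for Rfx4, with 13.7 to 15.5 CPM on the NCD and 7.01 to 11.8 CPM on the HFD, and overlap for the other 5 genes.

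Of the 5 RFX genes tested, Rfx4 alone passed the study's thresholds of an unadjusted p under 0.05 and a fold change of at least 1.5 between the diets. These thresholds were passed by 1.28% of all genes tested, and in the direction of Rfx4, lower on the HFD, by 0.748%, against 0.53% higher. The 176 genes past them here outnumber the study's own list, which came from quantile normalization and a test that was not named. After adjustment over all genes tested 0 of the 5 passed, as did 0% of all genes (quasi-likelihood test of edgeR, Benjamini-Hochberg adjusted). At an unadjusted p under 0.05 the same test gave 507 genes, or 3.68%, and DESeq2 gave 2 genes with an adjusted p under 0.05, neither of them an RFX gene. Of the 5 fold changes 1 was above 0 and 4 were below, with a median of -0.25 on the log2 scale, against a median of -0.0025 over all genes tested. Without HFD replicate 3, where 6 RFX genes passed the count filter, their median was -0.098, against -0.0044 over all genes. The study named Rfx4 as altered from these same libraries, so its value here is not an independent check.

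Rfx4 lies on chromosome 10 from 84756062 to 84906538 of GRCm38 (GENCODE vM21), and no exon of another gene overlaps its exons. Its 3 coding transcripts start at 3 places, and counts per gene do not tell them apart. Rfx4 had counts of 111, 136 and 147 in NCD replicates 1, 2 and 3, which are 13.7, 14.7 and 15.5 CPM. In HFD replicates 1, 2 and 3 the counts were 82, 81 and 51, or 11.8, 8.85 and 7.01 CPM. Every HFD library was below every NCD library, which held for 4.49% of all genes tested, while groups were apart in either direction for 8.81% and with the HFD higher for 4.31%, and the HFD libraries were more spread out than the NCD libraries. The mean was 1.59-fold lower on the HFD, which is -0.67 on the log2 scale with a standard error of 0.20 and a 95% interval from -1.10 to -0.24. The unadjusted p was 0.00426, the 33rd smallest of the genes tested, and the adjusted p = 0.979 in edgeR's quasi-likelihood test. An exact permutation test of 3 libraries against 3 cannot go below a two-sided p of 0.1, which is the value for groups that do not overlap.

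The spread of Rfx4 between NCD libraries, with an SD of 0.894 CPM, was below the 1.28 CPM that counting alone gives at this depth. Between HFD libraries the SD was 2.42 CPM against 1.09 CPM from counting. HFD replicate 3, the library with pituitary transcripts, held the lowest Rfx4 level. With that library left out the value was -0.51 on the log2 scale with a 95% interval from -0.93 to -0.10 and an unadjusted p of 0.0174, so Rfx4 was no longer past the 1.5-fold threshold. HFD replicate 2, whose thalamus and habenula sum of 553 CPM lay within the NCD range, also had less Rfx4 than any NCD library. The midbrain sum of HFD replicate 2, 184.2 CPM, lay below that of every NCD library, and its hypothalamus sum, 300.4 CPM, within their range. The summed level of midbrain genes was 193.1 to 209 CPM on the NCD and 161.3 to 205.7 CPM on the HFD, and that of hypothalamus genes 264.9 to 318.9 CPM and 208.7 to 300.4 CPM. The hypothalamus sum held 137.3 to 154.5 CPM of Npy. In HFD replicate 3 Hcrt was at 0.962 CPM, Pmch at 8.25 CPM and Oxt at 3.3 CPM. Elsewhere they were at 12.96 to 17.8 CPM, 33.8 to 45.5 CPM and 11.8 to 36.1 CPM. Pomc, also listed for the pituitary, was highest in that library, at 12.2 CPM. Single genes of these regions were lower with Rfx4. Of 9 tested midbrain genes 8 had a log2 fold change below 0. Of these 2 had an unadjusted p under 0.05, where 1.98% of all genes were lower at this threshold. They were Th at -0.85 with overlapping groups and Foxa2 at -1.42 with groups apart. Without HFD replicate 3 the midbrain list had 0 genes at an unadjusted p under 0.05. Of 8 tested hypothalamus genes 5 had a log2 fold change below 0 and 3 above. Only 1, the peptide gene Cartpt, had an unadjusted p under 0.05. Cartpt was at -0.85 with groups apart and the smallest unadjusted p of all genes, 3.77e-05 (adjusted p = 0.519 in edgeR's quasi-likelihood test). Its levels in HFD replicates 1, 2 and 3 were close together, at 16.8, 17.3 and 16.8 CPM. Of 7 tested liver genes 5 were lower at an unadjusted p under 0.05, as were 1.98% of all genes. Their median was -1.32 on the log2 scale, and 4 were lower at this threshold without HFD replicate 3. The part of these regions, the liver transcripts and the pituitary transcripts in the Rfx4 difference was not tested. In bulk tissue, fewer cells of a type and less RNA per cell cannot be told apart.

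Rfx4 is known from astrocytes and their radial glial precursors, and the astrocyte genes were compared beside it. Of the 16 astrocyte genes, all tested, 1 had an unadjusted p under 0.05, as did 3.68% of all genes, and the median log2 fold change was -0.05. That gene was Atp1b2, a subunit of the sodium pump, with 239, 254 and 290 CPM on the NCD and 242, 234 and 163 CPM on the HFD. Its log2 fold change of -0.29 was -0.14 without HFD replicate 3, and its unadjusted p was then 0.173. It was 0.18 without NCD replicate 3 and 0.0664 without NCD replicate 2. The summed level of the astrocyte genes was 6077 to 6427 CPM on the NCD and 5809 to 6237 CPM on the HFD, so the diets overlapped. As a share of that sum Rfx4 was 0.223%, 0.241% and 0.241% in the NCD libraries. On the HFD the shares were 0.191%, 0.142% and 0.121%. The groups were apart on this scale too, but the astrocyte sum varied only from 5809 to 6427 CPM over the libraries. The share thus nearly restates the Rfx4 level and is not a separate check. The water channel gene Aqp4 had a log2 fold change of -0.18 (SE 0.12), and the filament gene Gfap one of 0.02 (SE 0.11).

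Genes of the hedgehog pathway and the dorsal midline, in which RFX4 acts during development, held 11 tested genes of 16. Of these 0 were higher and 1 was lower at an unadjusted p under 0.05, where 1.71% and 1.98% of all genes were, and the median log2 fold change was -0.14. The gene was the ligand Wnt7b, with 24.6, 22.7 and 24.8 CPM on the NCD and 17.9, 21.6 and 17.5 CPM on the HFD, and the groups were apart. Its unadjusted p was 0.0775 to 0.105 with NCD replicate 1, NCD replicate 3, HFD replicate 1 or HFD replicate 3 left out. Cx3cl1, a chemokine and the most abundant gene of this list, had a log2 fold change of -0.06 (SE 0.11), and its values overlapped. Sspo, the product of the subcommissural organ, was under the count filter, with 0 to 1.58 CPM per library.

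**Figure D2:**
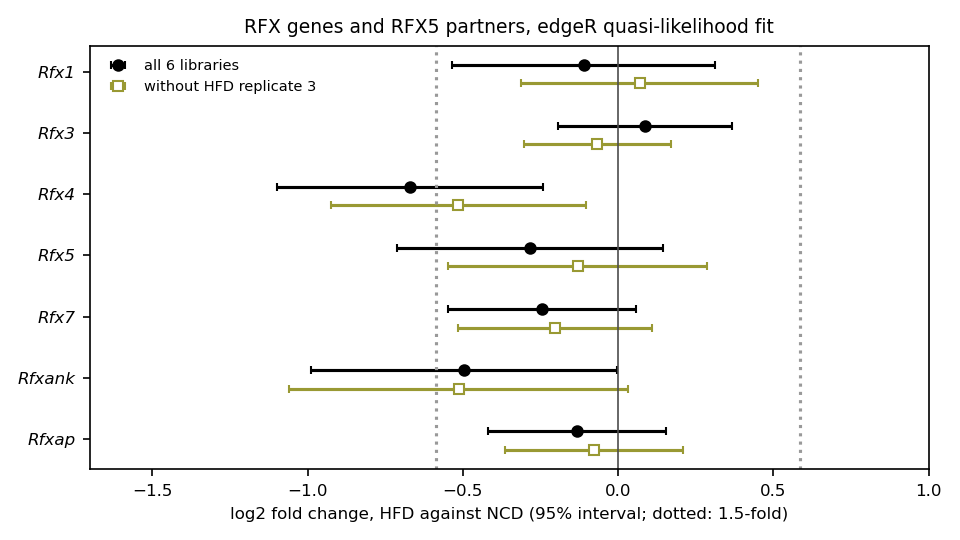
Log2 fold change of HFD against NCD (x axis) with its 95% interval for the 5 RFX genes tested and for the RFX5 partners Rfxank and Rfxap, from all 6 libraries (filled circles) and without HFD replicate 3 (open squares). Dotted lines mark a 1.5-fold change. Rfx4 is at -0.67 with all libraries and at -0.51 without that library, and both intervals stay below 0.

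Rfx3, a regulator of motile and primary cilia, lies on chromosome 19 from 27761721 to 28011166. Its levels were 68.4, 66.2 and 56.9 CPM in the NCD libraries and 61.8, 60.1 and 81.5 CPM in the HFD libraries. The highest value came from HFD replicate 3, and the groups overlapped. The log2 fold change was 0.09 (SE 0.13, 95% interval from -0.19 to 0.37), an interval that spans 0.875 to 1.29 times the NCD level. Without HFD replicate 3 it was -0.07. The SD of Rfx3 between HFD libraries was 4.04 times what counting gives, the widest ratio among the 6 genes.

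The ratio of Rfx4 to Rfx3 within a library does not depend on how libraries are scaled. Rfx4 was at 20%, 22.1% and 27.2% of the Rfx3 level on chow, and at 19.1%, 14.7% and 8.6% on the HFD. The groups were apart, with HFD replicate 1 close to NCD replicate 1. The lowest ratio, 8.6%, came from HFD replicate 3, which had both the least Rfx4 and the most Rfx3. The ratio holds the same Rfx4 counts as above, so it is not a separate check. How often ratios of other gene pairs keep the diets apart was not computed.

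Rfx2, which acts with Rfx3 in ciliated cells and in the male germline, lies on chromosome 17 from 56775897 to 56831013. It had counts of 9, 18 and 5 on chow and of 15, 10 and 8 on the HFD, and was under the count filter. The groups overlapped, with 0.527 to 1.94 CPM on chow and 1.09 to 2.16 CPM on the HFD. Fitted with no filter on counts, Rfx2 had a log2 fold change of 0.27 (SE 0.61), with a 95% interval from -0.93 to 1.46. Its SD between libraries was 1.95 times that of counting on chow and 1.42 times on the HFD.

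The intraflagellar transport and BBSome genes, which build and maintain cilia, were all tested, 41 of 41. At an unadjusted p under 0.05 1 was higher and 1 was lower, close to the 1.71% and 1.98% of all genes, and the median log2 fold change was 0.05. Ift74, of the complex that moves cargo toward the tip, had 46.0, 43.2 and 32.8 CPM on the NCD and 45.6, 52.9 and 59.1 CPM on the HFD. Wdr19, of the complex that returns cargo, had 19.5, 18.01 and 23.1 CPM on the NCD and 15.6, 16.8 and 13.5 CPM on the HFD. The log2 fold change of Ift74 was 0.37 (SE 0.14) and that of Wdr19 -0.40 (SE 0.16), and neither had an unadjusted p under 0.05 without HFD replicate 3 (0.0625 and 0.0702) or without NCD replicate 3 (0.107 and 0.112). The kinesin genes Kif3a and Kifap3, the most abundant of this list, had log2 fold changes of 0.01 and -0.00076.

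Of 19 transition zone genes, 18 were tested, with 0 higher and 0 lower at an unadjusted p under 0.05 in edgeR's test and a median log2 fold change of -0.04. The diets overlapped for the tested genes whose X boxes are printed above. Ttc26 ranged from 8.53 to 10.9 CPM on the NCD and from 7.92 to 14.4 CPM on the HFD. Bbs7 had a log2 fold change of 0.23 (SE 0.26), Tctn1 one of -0.04 (SE 0.28) and Ahi1 one of 0.01 (SE 0.10), each with overlapping groups, and Mks1 was under the count filter. Six3 had a log2 fold change of -0.14 (SE 0.17), also with overlapping groups.

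Promoters were at hand for 10930 of the genes tested, or 79.4%, so counts over promoter elements describe these genes only. Of 73 tested genes with a full X box, 1 was higher and 0 were lower at an unadjusted p under 0.05, or 1.37%, against 3.61% of the genes with a promoter. X box genes had a median log2 fold change of 0.01, and all genes with a promoter one of -0.0021. Among 1645 tested genes with a GTTGCC arm the share was 3.53%, with 27 higher and 31 lower.

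Motile cilia genes mark the ependyma that lines the ventricles, where Rfx2, Rfx3 and Foxj1 act. The list has 32 genes with an entry, of which 22 were tested, with a median log2 fold change of -0.07. The summed level of the 32 was 168.9 to 180.8 CPM on the NCD and 161.9 to 170.1 CPM on the HFD, and that of choroid plexus genes, which line the same ventricles, 1054 to 1322 CPM and 1121 to 1265 CPM. Ttr alone made up most of the choroid plexus sum, with 1008 to 1257 CPM per library. Of 9 choroid plexus genes tested 8 had a log2 fold change above 0. Kcnj13 was at 0.59 with groups apart and an unadjusted p of 0.0271 in edgeR's quasi-likelihood test. At an unadjusted p under 0.05 1.71% of all genes were higher. Without HFD replicate 3 the choroid plexus list had 0 genes past this threshold. Of the 22 motile cilia genes tested 1 was lower and 1 was higher at an unadjusted p under 0.05, where 3.68% of all genes were past this threshold. These 2 genes became 5 without NCD replicate 1, 4 without a count filter, and 1 without NCD replicate 3 or with DESeq2. Rsph1, of the radial spoke head, had 8.15, 7.66 and 6.74 CPM on the NCD and 5.47, 3.83 and 3.71 CPM on the HFD. Its groups were apart, and its log2 fold change was -0.80 (SE 0.26), or -0.71 without HFD replicate 3. Hydin, of the central pair of the axoneme, had 1.61, 1.08 and 1.05 CPM on the NCD and 1.73, 3.72 and 2.06 CPM on the HFD. Its unadjusted p was 0.0353, and it was 0.287 without HFD replicate 2, 0.0932 without NCD replicate 2 and 0.0892 without NCD replicate 3. Foxj1, the factor that defines this list, had a log2 fold change of -0.34 (SE 0.21) with overlapping groups, and Dnali1, its most abundant gene, one of 0.02 (SE 0.12).

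**Figure D3:**
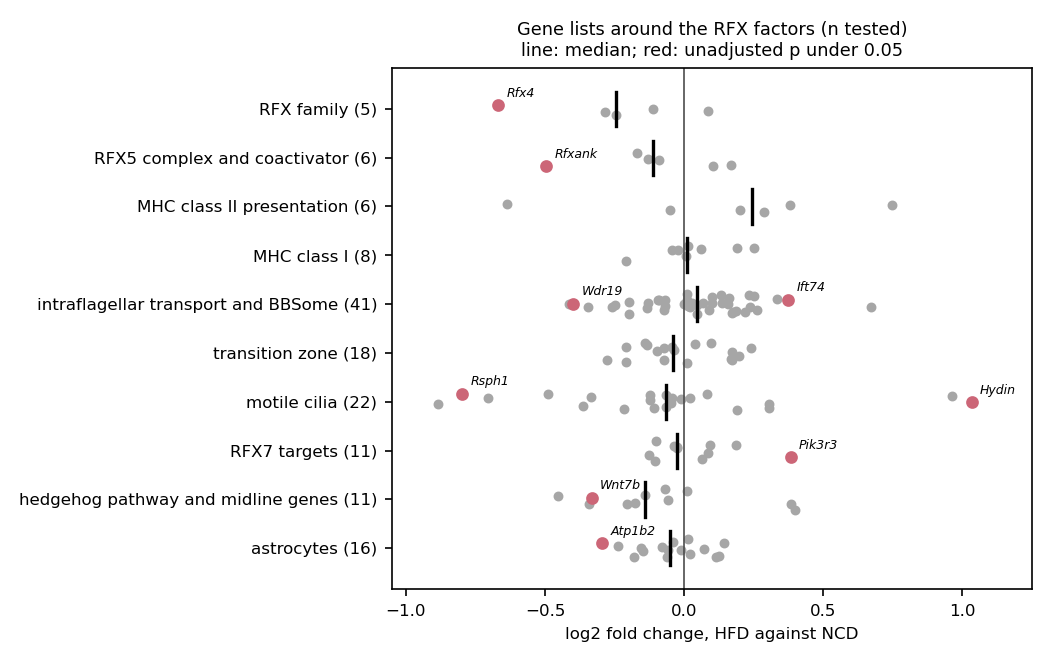
Log2 fold change of HFD against NCD (x axis) for each tested gene (points) of the gene lists around the RFX factors (y axis, number tested in brackets), with the median of each list as a vertical line. Red points have an unadjusted p under 0.05, and 0 genes of these lists had an adjusted p under 0.05. The medians lie between -0.25 for the RFX genes and 0.24 for MHC class II presentation.

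Rfx5 lies on chromosome 3 from 94954075 to 94961561, and B230398E01Rik on the other strand shares exon sequence with it. Whether counting used strand is not given in the sources used here, so the Rfx5 counts may hold reads of both genes. Rfx5 had 15.4, 16.2 and 23.8 CPM on the NCD and 15.1, 18.6 and 11.7 CPM on the HFD. NCD replicate 3 was the highest and HFD replicate 3 the lowest, and the other 4 libraries lay close together. The log2 fold change was -0.28 (SE 0.20, 95% interval from -0.71 to 0.14), and it was -0.06 without NCD replicate 3 and -0.13 without HFD replicate 3.

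The partners of RFX5 were measured beside it. Rfxank, an ankyrin repeat subunit, had 7.16, 7.98 and 10.4 CPM on the NCD and 5.47, 6.45 and 6.19 CPM on the HFD, and the groups were apart. Its log2 fold change was -0.50 (SE 0.23) with an unadjusted p of 0.048 and an adjusted p = 0.979 in edgeR's quasi-likelihood test. The unadjusted p of Rfxank was 0.0737 with DESeq2. It was 0.0318 without NCD replicate 1 and 0.0583 to 0.208 with each of the other 5 libraries left out, highest without NCD replicate 3. Exons of Nr2c2ap on the other strand overlap Rfxank, so its count is uncertain. Rfxap, the third subunit, had 26.4, 24.9 and 25.1 CPM on the NCD and 22.9, 25.2 and 21.4 CPM on the HFD. Its groups overlapped, and its log2 fold change was -0.13 (SE 0.14). Ciita, the coactivator that RFX5 complexes recruit, was near the floor, with 0.138 to 0.874 CPM. Over the 7 genes listed for the complex 6 were tested, of which 0 were higher and 1 was lower at an unadjusted p under 0.05, beside 1.71% and 1.98% of all genes. The median of these 6 was -0.11 on the log2 scale.

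The MHC class II genes, the best known targets of RFX5, were measured at low levels, with a sum of 16.8 to 23.6 CPM on the NCD and 22.6 to 23.6 CPM on the HFD over 10 genes. Of these 6 were tested, and 0 had an unadjusted p under 0.05 in edgeR's test. The median log2 fold change was 0.24, of the opposite sign to those of Rfx5 and Rfxank. H2-Eb1, a beta chain, had 1.36, 1.51 and 1.90 CPM on the NCD and 2.74, 2.84 and 2.48 CPM on the HFD. Its groups were apart, with a log2 fold change of 0.75 (SE 0.39) and an unadjusted p of 0.07. That p was 0.0342 when genes needed at least 10 counts in every library, the 1 MHC class II gene past 0.05 in that fit. H2-DMb1, a beta chain of the peptide exchange factor H2-DM, lay the other way, at -0.64 (SE 0.52) with overlapping groups. H2-Aa, an alpha chain, ranged from 2.42 to 5.06 CPM with overlapping groups. Of 8 tested MHC class I genes 0 had an unadjusted p under 0.05, and their median log2 fold change was 0.01. The summed level of 11 microglia and macrophage genes was 430.8 to 441.6 CPM on the NCD and 436.8 to 462.8 CPM on the HFD.

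Rfx7, on chromosome 9 from 72532240 to 72622937, had 26.7, 27.5 and 34.4 CPM on the NCD and 27.1, 24.5 and 23.4 CPM on the HFD. NCD replicate 3 was the highest, and the groups overlapped through HFD replicate 1. The log2 fold change was -0.25 (SE 0.14, 95% interval from -0.55 to 0.06), and it was -0.12 without NCD replicate 3. Gm27232 and Gm27241 on the other strand share exon sequence with Rfx7. Of 11 listed genes described as RFX7 targets, all tested, 1 was higher and 0 were lower at an unadjusted p under 0.05, beside 1.71% and 1.98% of all genes. Their median log2 fold change was -0.03. Pik3r3, a regulatory subunit of PI3 kinase, had 36.4, 36.9 and 30.3 CPM on the NCD and 46.9, 42.5 and 45.8 CPM on the HFD. Its groups were apart, and its log2 fold change was 0.38 (SE 0.13) with an unadjusted p of 0.00773 and an adjusted p = 0.979 in edgeR's quasi-likelihood test. The growth inhibitor gene Pdcd4 had a log2 fold change of 0.09 (SE 0.12), and Abat, an enzyme of GABA breakdown and the most abundant gene of this list, one of -0.13 (SE 0.13).

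Rfx1, on chromosome 8 from 84066834 to 84096992, had 14.9, 15.4 and 15.8 CPM on the NCD and 19.1, 13.4 and 10.3 CPM on the HFD. The NCD libraries lay within the range of the HFD libraries, of which replicate 1 was the highest and replicate 3 the lowest. The log2 fold change was -0.11 (SE 0.20, 95% interval from -0.53 to 0.31), and it was 0.07 without HFD replicate 3. The SD between HFD libraries was 3.31 times that of counting, and between NCD libraries 0.332 times. Exons of C330011M18Rik on the other strand overlap Rfx1 by 42 bases.

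The remaining RFX genes of the mouse were at or under the floor. Rfx6 had a count of 0 in all 6 libraries, which allows up to 0.316 to 0.432 CPM, and Rfx8 had counts of 0 to 3.

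Profiles over the 6 libraries were compared by the root mean square difference of log2(CPM + 1) after each gene was centred on its own mean, among 11136 tested genes with a mean of at least 5 CPM. Between RFX genes the nearest pair was Rfx5 and Rfx7 at 0.186, and the farthest was Rfx3 and Rfx4 at 0.493. The profiles nearest to Rfx4 were Gdpd2 at 0.0863, Cacna1g at 0.0923, Fzd6 at 0.0924, Tmem265 at 0.0949 and Crtc3 at 0.1. Gdpd2 encodes a glycerophosphodiester phosphodiesterase, Cacna1g a T-type calcium channel, Fzd6 a frizzled receptor and Crtc3 a coactivator of CREB. Each of these 5 genes was lowest in HFD replicate 3. They were picked for this likeness, so their values describe the profile and carry no test.

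**Figure D4:**
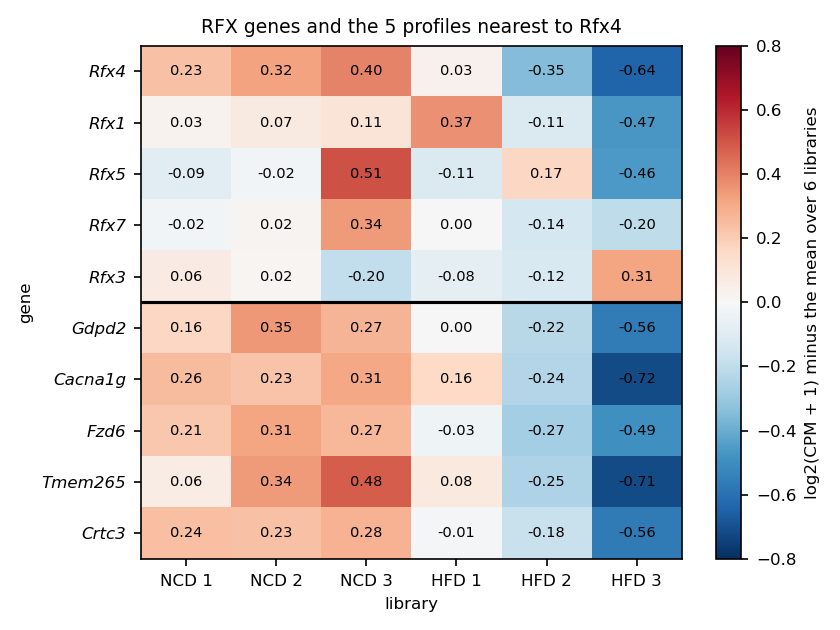
Deviation of log2(CPM + 1) from the gene's mean over the 6 libraries (colour and number in each cell) for 5 RFX genes, above the line, and for the 5 genes nearest in profile to Rfx4, below it. HFD replicate 3 holds the lowest value of Rfx4 at -0.64, of Rfx1 at -0.47, of Rfx5 at -0.46 and of Rfx7 at -0.20, and the highest of Rfx3 at 0.31.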

How the data were processed

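RNA-Seq was analysed for 3 NCD and 3 HFD libraries, grouped by the sample titles. The authors prepared QuantSeq 3′ libraries, trimmed the reads, aligned them to mm10 with Bowtie2 and counted unique and multiple alignments per gene with bedtools. The deposited values are raw read counts, 1 table per library. The annotation and the use of strand are not given in the sources used here. Multiple alignments can add reads of related sequences to a gene.

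The diets were compared with edgeR 4.0.16 (R 4.3.3), using filterByExpr (minimum count 10, minimum total 15), TMM, glmQLFit and glmQLFTest without a covariate, over all 13771 genes that passed. Each standard error was obtained from the fold change and its F statistic. Rfx2 and other genes under the filter come from the fit without it. The code was tested on simulated data. Alternatives used DESeq2 1.42.0 and limma 3.58.1. Gene symbols that occur more than once, 44 entries, were kept apart. The RFX genes, the gene lists and the tests were chosen with earlier results of these data known. Named list genes are those with an unadjusted p under 0.05, the most abundant and the first listed. H2-Eb1, H2-DMb1, Gfap, Sspo, Th, Foxa2, Cartpt, Hcrt, Pmch, Oxt and Pomc were chosen after their values were seen, and Ttc26, Bbs7, Tctn1 and Six3 for their X boxes. Libraries of 1 diet were further apart than sampling noise (chi-square per degree of freedom 3.58 to 17.1), so each counted as 1 sample. Protein sequences were not used here.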

Additional observations from a re-analysis of the deposited data

How the results depend on the processing

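Rfx4 was the 1 RFX gene past the study's thresholds in the main analysis and kept its direction in all 15 alternatives, with an adjusted p between 0.402 and 1 over all fits. It passed both thresholds in 14 of them, the exception being the fit without HFD replicate 3, so the number of RFX genes past the thresholds ran from 0 to 1 with each library left out. Its log2 fold change ran from -0.87 without HFD replicate 1 to -0.51 without HFD replicate 3. RFX genes with an adjusted p under 0.05 numbered 0 in every fit. The number of all genes past the study's thresholds was 176, and it was 396 without a count filter. The number of all genes with an adjusted p under 0.05 was 2 with DESeq2, 23 without a filter and 0 to 3 with each library left out, the 3 without NCD replicate 3. With each library left out, the log2 fold change ran from -0.37 to 0.07 for Rfx1, from -0.12 to 0.44 for Rfx2 and from -0.07 to 0.17 for Rfx3, so these 3 changed sign, while Rfx5 and Rfx7 kept theirs, from -0.47 to -0.06 and from -0.31 to -0.12. Without HFD replicate 3 the value was 0.069 for Rfx1 and -0.066 for Rfx3. Rfx2 has no value without NCD replicate 2, where it was under the count filter, so its range covers the other 5 fits, and it changed sign without NCD replicate 3 or HFD replicate 1. The cause was not tested. Replicate numbers are shared between the diets, but deviations of same-numbered libraries correlated at -0.0388, 0.0313 and -0.0746, so they share only a number. With a replicate block 155 genes passed the study's thresholds, Rfx4 among them at -0.69, and 0 had an adjusted p under 0.05. Low counts limit Rfx2, Rfx8 and Ciita, and Rfx6 had none.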
